A study of Solenopsis invicta with 52 samples.

Results

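Gasters of 6 SB/Sb workers of polygyne origin (group pBL) were compared with gasters of 6 SB/SB workers of monogyne origin (group mpBB) in the red imported fire ant, Solenopsis invicta. These 12 libraries were chosen by the tissue and group in their titles, out of 52 libraries in the series. Each library held RNA of a single worker's gaster, the rear part of the abdomen, and the values are counts of reads per gene. Both groups had been moved as dark pupae into polygyne host colonies of 250 workers with 2 egg-laying SB/Sb queens, so that the form of the adult host colony was held constant. Minor workers of 0.6 to 0.9 mg were collected 16 days after the transfer, at an age of 14 to 16 days. The groups thus differ in genotype and in colony of origin, and in this comparison these cannot be told apart. A pair of further gaster groups, with 6 libraries each, was used to set the values in context. The workers of pBB were SB/SB, of polygyne origin, and lived in polygyne hosts. Those of mBB were SB/SB, of monogyne origin, and lived in monogyne hosts with 1 SB/SB queen. The pupae came from 10 monogyne and 9 polygyne stock colonies. The labels do not say which colony each worker came from, so that p-values measure the spread between single workers.

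The SB and Sb haplotypes are versions of a supergene, a stretch of chromosome whose genes are inherited together because inversions keep the versions from recombining. Colonies that accept a single queen (monogyne) hold SB/SB workers, whereas colonies with several queens (polygyne) hold SB/SB and SB/Sb workers together. A worker's gaster contains fat body, gut, the venom gland, muscle and nerve cells. In bulk RNA of such an organ, fewer cells of a type and less RNA per cell cannot be told apart. The files give gene identifiers without names, and none of them matched the RefSeq gene table. Genes are therefore given by identifier, no function is assigned to any of them, and neither the tissue nor the genotype of a library was checked against a named marker gene.

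Libraries of the groups were alike in depth. The pBL gasters held 59.9 ± 6.01 M counts in genes and the mpBB gasters 64.9 ± 8.24 M (SD, n = 6 each; two-sided exact permutation test, p = 0.266). Unmapped reads made up 18.3 ± 4.83% in pBL and 17.8 ± 5.98% in mpBB (SD, n = 6 each), and 6 measures of depth and read class gave Benjamini-Hochberg adjusted exact permutation p-values between 0.796 and 0.911. On the first component of a principal component analysis of the 12 libraries (21.1% of the variance) the 3 pBL workers with an identification number under 140 lay at 20.1 to 36.3 and the 3 with a higher number at -8.23 to 6.15. The mpBB workers lay at -10.7 to 14.1 and at -32.2 to -27.4. The split at 140 was chosen after earlier results of these data had shown that gaster libraries differ with this number. Each group holds 3 workers of each kind, and the differences within each kind are given below. On the second component (18.7% of the variance) pBL lay at -27.6 to -1.27 and mpBB at -2.4 to 37, with a small overlap. Among the context libraries the gaster of pBB replicate 1 stood apart, with 30.0 M counts and 53.4% of reads unmapped, against 46.3 to 77.3 M and 11.2 to 28.8% in the other 23 gasters. Several values of pBB are therefore also given without it.

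SB/Sb gasters differed from monogyne-origin SB/SB gasters in few genes, and nearly all of those genes were higher. Of 11574 genes tested, 62 lay past an adjusted p of 0.05 (0.536%), in the quasi-likelihood test of edgeR adjusted after Benjamini and Hochberg over all genes. Of these, 55 were higher in pBL (0.475%) and 7 were lower (0.0605%). DESeq2 called 19 lower genes, and a fit with 3 surrogate variables 16. The genes fell into 3 kinds by level and direction. There were 35 higher genes with a mean under 1 CPM (read count of a gene relative to the library total, scaled by TMM) in mpBB, 20 higher genes at 1 CPM or more in mpBB, and the 7 lower genes. The 12 values of the pBL and mpBB gasters did not overlap for 49 of the 62 genes. Among all tested genes such separation was found for 66 with pBL higher (0.57%) and 16 with pBL lower (0.138%). The median log2 fold change of all tested genes was 0.00, with quartiles at -0.10 and 0.10.

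**Figure D1:**
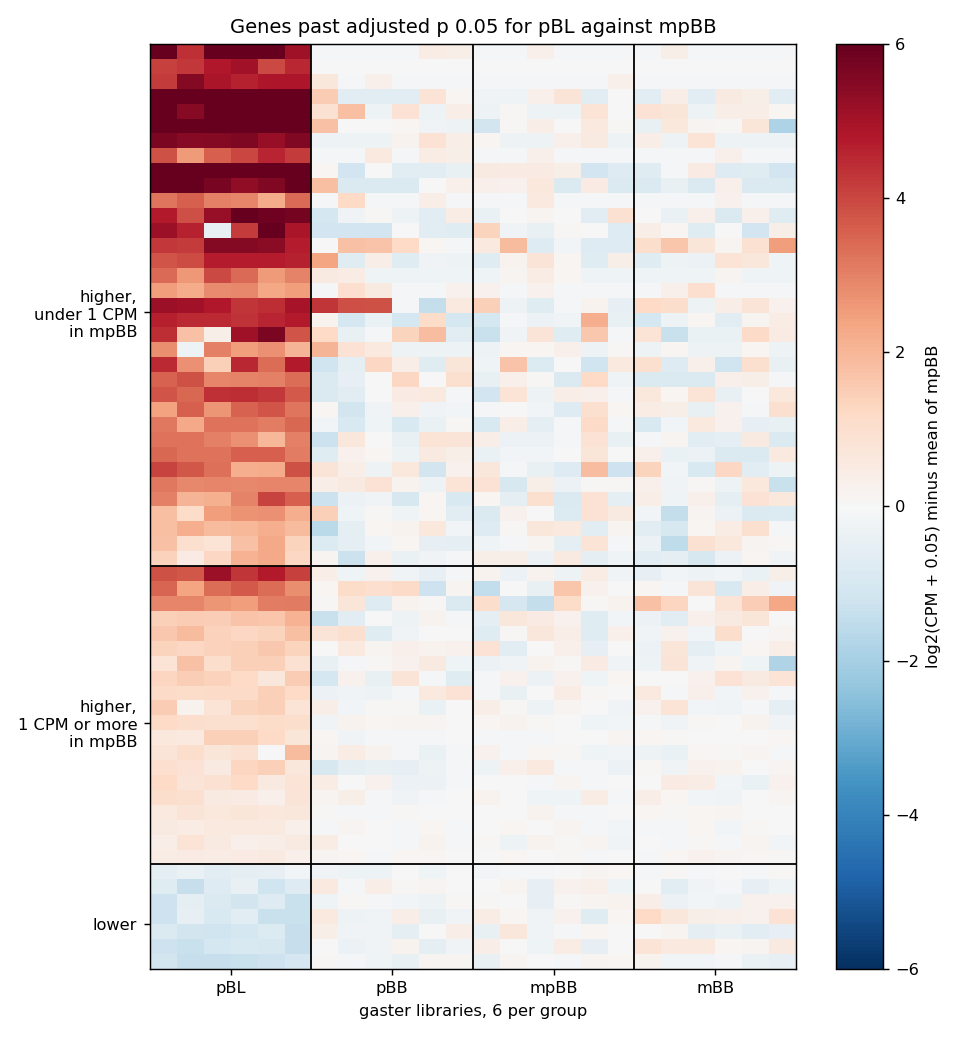
Level of the 62 genes past the threshold (rows, ordered within each kind by fold change) in the 24 gaster libraries (columns), as log2(CPM + 0.05) minus the mean of mpBB on that scale, with colours cut off at 6 in each direction. The 6 pBL columns stand apart from the other 18, and 1 row of the upper block is also raised in 3 pBB columns.

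The 35 genes under 1 CPM in mpBB were raised by a median of 4.78 on the log2 scale, between 1.56 and 9.59. Their summed level was 160.0 ± 31.3 CPM in pBL gasters and 6.43 ± 0.929 CPM in mpBB gasters (SD, n = 6 each). The lowest pBL gaster held 113 CPM, the median 154 CPM and the highest 196 CPM, against 5.43, 6.29 and 8.05 CPM in mpBB. The other SB/SB gasters held 8.58 ± 2.89 CPM (pBB) and 6.20 ± 1.01 CPM (mBB). The genes were chosen on the pBL and mpBB libraries, so that the separation of these sums follows from the choice. Moreover, 24 of the 35 reached the minimum count for testing only through the pBL gasters. Low levels in most SB/SB gasters were thus set in advance for them, and a difference was favoured. That no gene of this kind was lower in pBL also follows from the choice, since a gene near 0 in mpBB has no room to fall. In all, 1858 tested genes averaged under 1 CPM in mpBB, and 1823 of them were not past the threshold.

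Of these genes SINVBB1_09473 had the largest fold change. Its level in pBL gasters was 1.04 CPM at the lowest, 3.98 CPM at the median and 6.0 CPM at the highest. In mpBB gasters 5 of 6 libraries had 0 counts, and the highest stood at 0.0152 CPM. The 6 pBL libraries together held 1277 counts and the 6 mpBB libraries 1 count, a ratio of 1390 after scaling for depth, with an exact 95% interval of 249 to 54930 that covers counting error only. The fitted log2 fold change was 9.59 ± 0.71 (SE), with an adjusted p of 8.12e-09 by edgeR. Among the pBL workers replicates 3 and 8 were lowest, at 1.04 and 1.72 CPM.

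SINVBB1_11728, chosen after its values were seen, was the single gene of the 62 with 0 counts in all mpBB libraries, and it also had 0 counts in the pBB and mBB gasters. It stood between 0.739 and 1.61 CPM in pBL gasters, with a median of 1.000 CPM and 400 counts in all. Against a floor of 3 counts over the mpBB group it was at least 145-fold higher in pBL. In brain it stood at 1.25 ± 0.302 CPM in pBL and 0.00912 ± 0.0241 CPM in mpBB (SD, n = 7 each). With that bound in place of its fitted value, the median of the 35 genes remained 4.78. All 6 mpBB gasters held at least 1 count for 15 of the 35 genes, and all 6 pBL gasters did for 34.

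The 20 higher genes at 1 CPM or more in mpBB had smaller fold changes, with a median log2 value of 1.07 and a range of 0.45 to 4.41. For 8 of the 20 the log2 fold change lay under 1. Together they reached 836 ± 64.8 CPM in pBL and 415 ± 17.2 CPM in mpBB gasters (SD, n = 6 each), with 418 ± 17.4 CPM in pBB and 436 ± 16.2 CPM in mBB. They were called on the pBL and mpBB libraries, so that the difference of the sums between these groups follows from the choice. The coefficient of variation between workers had a median over these genes of 18.1% in pBL and 19.2% in mpBB.

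SINVBB1_08915 had the largest fold change of these 20. Its lowest, median and highest levels were 22.6, 31.7 and 61.01 CPM in pBL gasters, against 1.28, 1.69 and 2.29 CPM in mpBB gasters. Every pBL gaster thus lay above every mpBB gaster, which was a condition for naming the gene. The log2 fold change was 4.41 ± 0.26 (SE), adjusted p = 1.6e-10 by edgeR. The gasters of pBB (1.63 ± 0.411 CPM) and mBB (1.47 ± 0.341 CPM; SD, n = 6 each) stood at the level of mpBB.

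For the 7 lower genes the median on the log2 scale was -1.01, and the values lay between -1.25 and -0.48. Their summed level was 176 ± 9.47 CPM in pBL and 357 ± 58.6 CPM in mpBB gasters (SD, n = 6 each), with 342 ± 48.5 CPM in pBB and 317 ± 43.6 CPM in mBB. The highest pBL sum was 189 CPM and the lowest mpBB sum 294 CPM. These genes were called on the pBL and mpBB libraries, so that the separation of their sums follows from the choice. For 4 of the 7 genes the pBL and mpBB values did not overlap.

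SINVBB1_06378 had the largest fall, with 24.6, 25.8 and 32.0 CPM (lowest, median, highest) in pBL gasters, against 47.4, 66.8 and 72.5 CPM in mpBB gasters. No pBL gaster reached the lowest mpBB gaster, and the log2 fold change was -1.25 ± 0.13 (SE; adjusted p = 9.73e-07 by edgeR). SINVBB1_15423 was at 1.18, 1.42 and 1.66 CPM in pBL gasters, against 2.29, 3.10 and 4.34 CPM in mpBB gasters. Its groups did not overlap either, which was a condition for naming both genes. The log2 fold change of SINVBB1_15423 was -1.22 ± 0.18 (SE; adjusted p = 0.000278 by edgeR). The level of SINVBB1_15423 in mBB gasters, 4.52 ± 0.843 CPM, was the highest of the 4 groups, and the log2 fold change of mpBB against mBB was -0.46 (adjusted p = 0.9999). Neither gene passed in the workers numbered under 140 (3 in each group), at log2 fold changes of -1.13 (SINVBB1_06378, adjusted p = 0.0939) and -1.37 (SINVBB1_15423, adjusted p = 0.1004). In the workers numbered over 140 SINVBB1_15423 did not pass either, at -1.08 (adjusted p = 0.166).

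**Figure D2:**
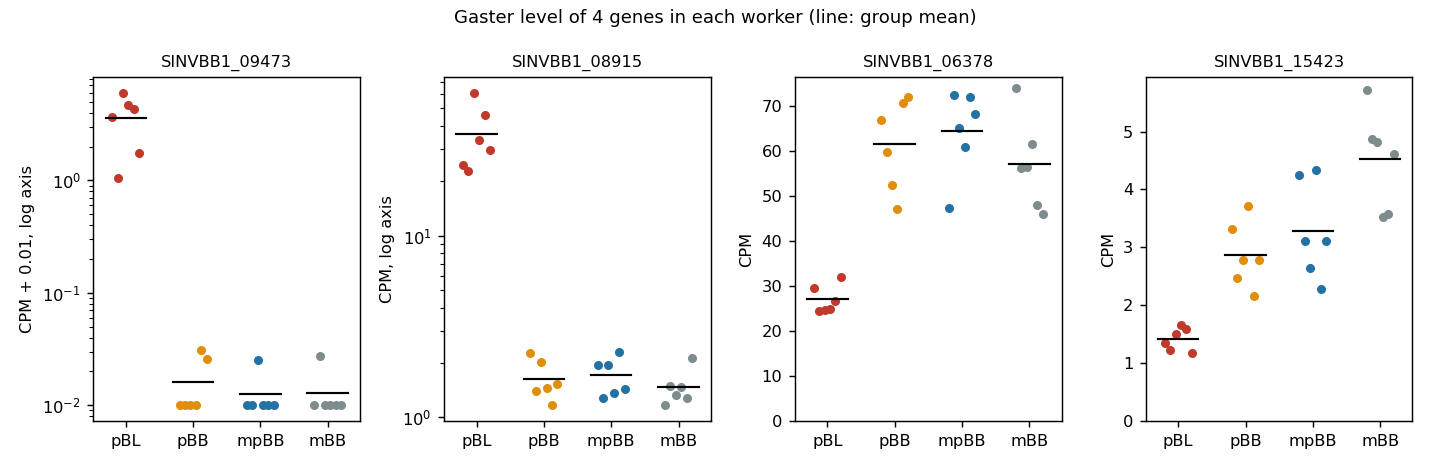
CPM of 4 genes in each of the 24 gaster libraries, by group (points: workers, line: group mean, n = 6 per group), with a log axis for the higher genes (0.01 added for SINVBB1_09473) and an axis from 0 for the lower ones. The 4 genes were named among those whose pBL and mpBB values do not overlap, so that the separation of these groups was set by the choice. For SINVBB1_15423 the mBB mean is highest.

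The called genes were not spread evenly over the rows of the files, and the kinds differed in where they stood. The 1000-row window with most called genes held 31 of the 62, between rows 4735 and 5609. Within those 875 rows 31 of 692 tested genes were called (4.48%), against 31 of 10882 in all other rows (0.285%). All 7 lower genes stood in this stretch, together with 15 of the 20 higher genes at 1 CPM or more in mpBB. Of the 35 genes under 1 CPM in mpBB, 9 stood in it and 26 outside. The stretch was chosen from the called genes, so that these shares are a description. The files do not say what the order of rows stands for.

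Genes of the stretch that were not called also tended to larger differences between pBL and mpBB. Their median absolute log2 fold change was 0.142, against 0.101 in the other rows. An unadjusted p under 0.05 was found for 80 of the 661 not called genes of the stretch (12.1%), against 3.15% of those elsewhere. Over all tested genes, called ones included, the share was 4.18%. For mpBB against mBB, 2 groups of the same genotype and origin, the median absolute log2 fold change was 0.114 in the stretch and 0.117 elsewhere. Counted by distance, 29 of the 62 genes had another called gene within 10 rows, including 5 of the 7 lower genes. Of all tested genes 0.536% were called, and the count for genes placed at random was not worked out. SINVBB1_09841b and SINVBB1_09841c, which stand in adjacent rows, are among those counted.

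**Figure D3:**
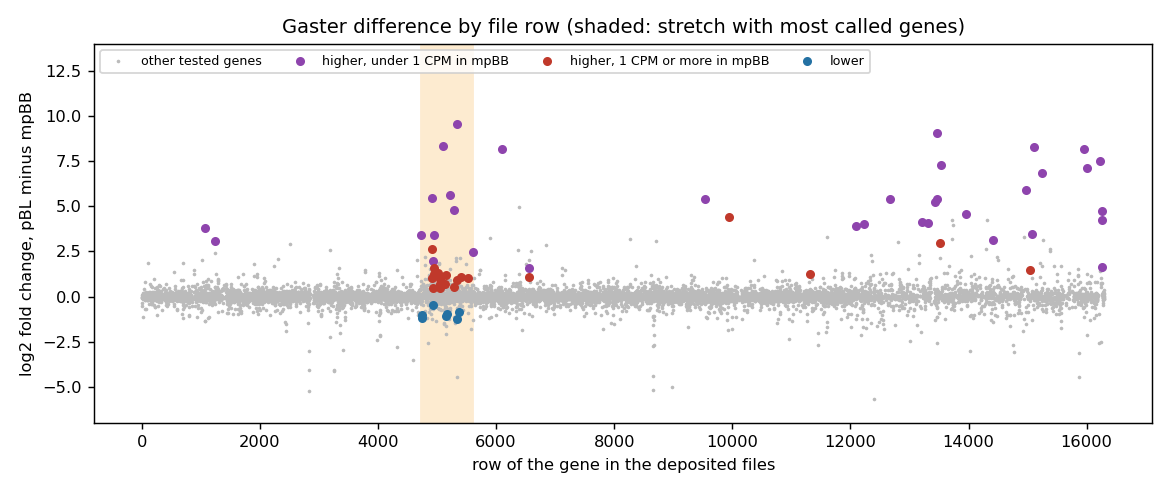
Log2 fold change of pBL minus mpBB in gaster (vertical axis) for each tested gene by its row in the deposited files (horizontal axis), with the 62 called genes in colour. The shaded stretch of 875 rows holds 31 of them, including the 7 lower genes, and most of the higher genes outside it are under 1 CPM in mpBB.

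Because pBL and mpBB differ in origin as well as genotype, the same genes were set against pBB, the SB/SB workers that share the origin of pBL. The comparisons pBL against mpBB and pBL against pBB use the same pBL libraries, and pBB against mpBB is by construction the difference between them. Over all tested genes, pBL against pBB called 69 (0.596%) and pBB against mpBB called 0 (0%) by edgeR. An unadjusted p under 0.05 was found for 315 genes in pBB against mpBB, and DESeq2 called 6. For the 35 genes under 1 CPM in mpBB the median log2 fold change was 4.78 against mpBB and 4.41 against pBB. For the 20 genes at 1 CPM or more in mpBB these medians were 1.07 and 1.09, and for the 7 lower genes -1.01 and -1.02. The median of pBB minus mpBB itself was 0.09, 0.01 and -0.07 in the 3 kinds. It exceeded 1 in absolute log2 value for 10 of the 62 genes, all of them under 1 CPM in mpBB, and the lowest adjusted p among the 62 was 0.717. Without pBB replicate 1, pBL against pBB called 66 genes and pBB against mpBB 0 (299 at an unadjusted p under 0.05). The medians against pBB were then 4.30, 1.10 and -0.97 in the 3 kinds. The mean of pBB was nearer to mpBB than to pBL on the log2 scale for 61 of the 62 genes, and that of mBB for all 62. However, 24 of the 35 genes under 1 CPM in mpBB reached the minimum count only through the pBL gasters. Low levels in most SB/SB gasters, though not in each of them, were thus set in advance for those 24. These counts, and the median of the 35 genes against pBB, follow in part from that.

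The threshold was not passed against pBB by 4 of the 62 genes, which were singled out after their values were seen. SINVBB1_06147 had a log2 fold change of -0.48 against mpBB (adjusted p = 0.00299) and -0.29 against pBB (adjusted p = 0.255). SINVBB1_09673 stood at 0.50 (adjusted p = 0.0310) and 0.41 (adjusted p = 0.132), and SINVBB1_09841c at 4.26 (adjusted p = 0.0204) and 2.61 (adjusted p = 0.337). Their differences between pBB and mpBB were -0.19, 0.09 and 1.65, each with an adjusted p of 0.9999. In pBB, SINVBB1_09841c stood at 0.205 CPM in replicate 1, the library that stood apart, and at no more than 0.0597 CPM in the other gasters. SINVBB1_09841b, in the row next to SINVBB1_09841c, passed against pBB at 5.84 (adjusted p = 0.000456 by edgeR).

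The remaining gene of the 4, SINVBB1_06613, divided the pBB workers. In pBL gasters its level was 7.03 CPM at the lowest, 10.5 CPM at the median and 12.7 CPM at the highest. In mpBB gasters it was 0.167, 0.261 and 0.935 CPM, and in mBB gasters it was 0.244, 0.496 and 0.784 CPM. Among the pBB gasters, replicates 1, 3 and 5 held 6.93, 5.28 and 5.04 CPM, whereas replicates 6, 7 and 8 held 0.290, 0.0847 and 0.497 CPM. The log2 fold change was 4.78 ± 0.76 (SE) against mpBB (adjusted p = 0.000759) and 1.74 ± 0.66 against pBB (adjusted p = 0.671). Between pBB and mpBB it was 3.04 ± 0.72 (adjusted p = 0.717), a group difference that rests on 3 of 6 workers. Without pBB replicate 1 the log2 fold change of pBL was 2.16 against pBB (adjusted p = 0.423). In the other 34 genes of its kind the same 3 workers stood with the SB/SB groups. Summed over those genes, pBB replicates 1, 3 and 5 held 5.46, 4.49 and 6.05 CPM, against 101 to 189 CPM in pBL and 4.84 to 7.67 CPM in mpBB. The genes were chosen as higher in pBL and under 1 CPM in mpBB. For 24 of the 35 genes of the kind, the minimum count also set low levels in most SB/SB gasters in advance. These sums thus follow in part from the choice. The genotype of the pBB workers is as labelled and was not checked otherwise.

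Brains of the same groups showed the same division in SINVBB1_06613. The 7 pBL brains stood at 39.9 to 50.7 CPM and the 7 mpBB brains at 0.576 to 2.74 CPM. Of the pBB brains, those of replicates 1, 3 and 5 had 43.6, 33.4 and 42.1 CPM and the other 4 had 0.478 to 1.46 CPM. The workers with a high gaster level in pBB were thus also those with a high brain level, and the replicates 6 and 7 were low in both tissues. Relative to mpBB the brain log2 fold change of pBL was 5.03 ± 0.78 (SE; adjusted p = 0.000238).

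**Figure D4:**
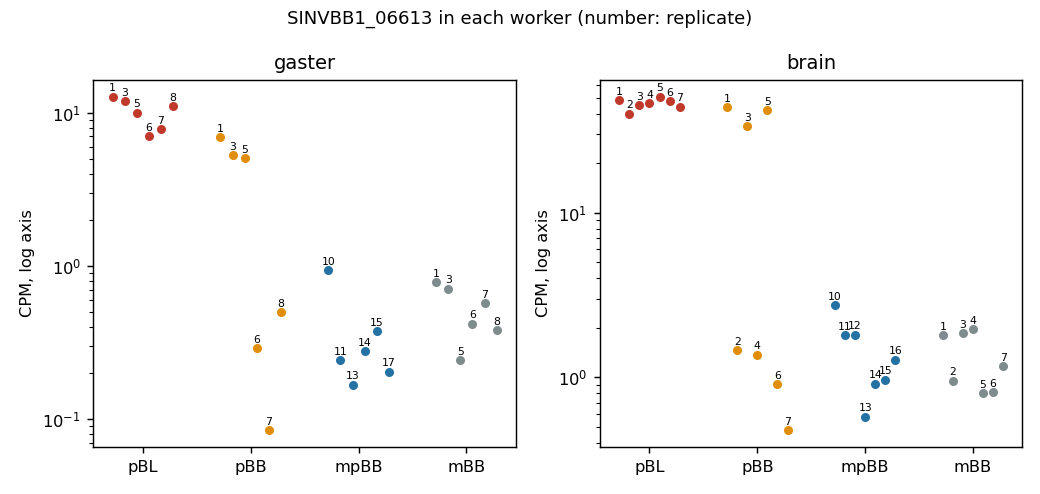
CPM of SINVBB1_06613 (log axis) in each gaster (left) and brain (right) library by group, with replicate numbers at the points. The pBB replicates 1, 3 and 5 lie near the pBL workers in both tissues, and the other pBB workers lie with mpBB and mBB.

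The same contrast was tested in brain, where 5 of the 6 gaster workers of each group also gave a library. In brain 60 of 12006 genes passed (0.5%), 52 higher (0.433%) and 8 lower (0.0666%) in pBL. Of the 62 genes called in gaster, 46 were tested in brain and 24 passed there, 23 of them in the same direction, which is 37.1% of the gaster list and 38.3% of the brain list. The workers are largely shared, so that the lists are not independent. Of the 35 genes under 1 CPM in gaster mpBB, 22 were tested in brain and 16 passed. However, 10 of these 16 reached the minimum count only through the pBL brains, so that a difference was favoured in advance. Of the remaining 12 tested genes 6 passed. Among the 18 tested genes at 1 CPM or more, 6 passed, and the median brain log2 fold change was 0.24. Brain counts are of both strands and gaster counts of the annotated strand only. Genes with many opposite-strand reads in gaster, such as SINVBB1_09673 among the 18, are therefore not measured alike in the tissues. Among the 6 tested lower genes 2 passed, 1 of them in the opposite direction, and the median was -0.09. In brain 31 of 695 tested genes of the same row stretch were called (4.46%), against 29 of 11311 elsewhere (0.256%).

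**Figure D5:**
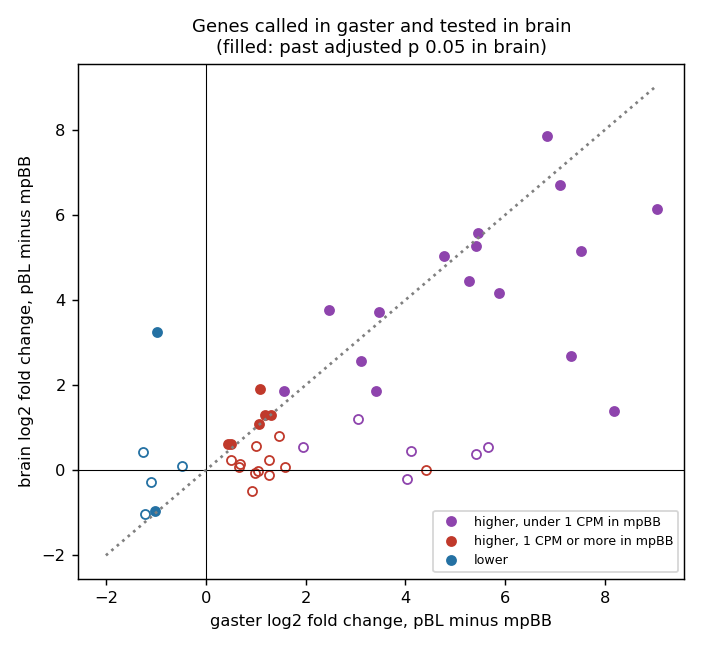
Log2 fold change of pBL minus mpBB in brain (vertical axis) against that in gaster (horizontal axis) for the 46 genes called in gaster and tested in brain, with a dotted line of equal values. Filled points passed an adjusted p of 0.05 in brain, and several of the higher genes of gaster lie near 0 in brain.

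A single model of the 52 libraries, fitted to unstranded counts of 13452 genes, tested gaster against brain for the pBL minus mpBB contrast. The contrast differed for 34 genes (0.253%), with pBL minus mpBB more positive in gaster for 19 and in brain for 15. Of the 62 genes called in gaster, 61 entered this fit and 17 differed between tissues, 13 of them with the more positive value in gaster. Of the 17, SINVBB1_09473, SINVBB1_13964 and SINVBB1_15488 had too few brain counts to be tested in brain alone, and all 3 were more positive in gaster. Among the 14 others the value was more positive in gaster for 10. All 13 genes with the more positive value in gaster were higher in pBL gasters, and the other 4 of the 17 were lower. The 62 genes were called on these gasters, so that a larger difference in gaster was favoured by the choice. Moreover, 1 of the 17 reached the minimum count of this fit only through the pBL gasters.

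SINVBB1_08915, with 36.2 ± 14.7 CPM in pBL and 1.71 ± 0.409 CPM in mpBB gasters (SD, n = 6 each), averaged 8.18 ± 1.98 CPM in the brains of pBL and 8.10 ± 0.854 CPM in those of mpBB (SD, n = 7 each). The brain log2 fold change was 0.01 ± 0.14 (SE), and gaster exceeded brain by 4.36 ± 0.27 (adjusted p = 1.94e-17). SINVBB1_06378, lower in pBL gasters, had 88.4 ± 20.8 CPM in pBL and 65.96 ± 11.4 CPM in mpBB brains, a log2 fold change of 0.42 that did not pass (adjusted p = 0.234). Gaster minus brain stood at -1.71 ± 0.19 for this gene (adjusted p = 1.15e-08). SINVBB1_15423 had a log2 fold change of -1.03 ± 0.32 in brain (adjusted p = 0.345), and its difference between tissues, -0.22 ± 0.40 (SE), did not pass (adjusted p = 1.000). SINVBB1_01949, singled out after its values were seen, passed in both tissues in opposite directions, at -0.98 in gaster and 3.26 in brain (difference -4.25 ± 0.35, adjusted p = 1.78e-12).

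Values within the workers numbered under and over 140, with 3 libraries per group in each, describe how far the differences were shared by both kinds. The 62 genes were called on these same libraries, so that their direction in each kind was largely set by the choice and is not counted here. The median log2 fold change of the 35 genes under 1 CPM in mpBB was 4.99 under 140 and 4.96 over 140. For the 20 at 1 CPM or more it was 1.14 and 0.96, and for the 7 lower genes -1.002 and -1.02. With these smaller groups 18 genes were called under 140, all higher, and 38 over 140, of which 35 were higher and 3 lower. When each of the 12 libraries was left out in turn, 57 to 71 genes passed and 52 of the 62 passed every time.

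Gaster reads were counted by strand, which allowed the opposite strand of each called gene to be examined. The share of opposite-strand counts in pBL had a median of 0.743% over the 62 genes and exceeded 10% for 6 of them. For SINVBB1_09673, singled out after its values were seen, 93.6% of the pBL strand counts lay on the opposite strand. Opposite-strand counts of this gene stood at 275 ± 36.6 CPM in pBL and 268 ± 61.3 CPM in mpBB gasters (SD, n = 6 each), with overlapping ranges of 219 to 311 and 193 to 341 CPM. Its called difference on the annotated strand was 18.8 ± 2.34 CPM in pBL against 13.3 ± 1.75 CPM in mpBB, and the call held in 5 of the 12 fits that left out a library. With counts of both strands 59 of the 62 genes still passed.

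For most other genes the data bound the difference. The 95% interval of the log2 fold change lay within -1 and 1 for 9091 of the 11574 tested genes (78.5%). That share was 25.5% for genes with a mean under 1 CPM over the 12 libraries, 76.9% from 1 to 10 CPM, 93.5% from 10 to 100 CPM and 91.6% above 100 CPM. An absolute log2 fold change over 1 was estimated for 354 genes, of which 51 were called. The 303 others, 142 higher and 161 lower in pBL, had a median standard error of 0.762, against 0.50 in the 51 called genes.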

How the data were processed

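The deposited files hold read counts per gene for each library. Reads were handled with Trim Galore and STAR, and edgeR was used, per the submitters' processing notes; the sources used here give no versions, genome build or annotation. Of the count columns, the deposited reverse-strand counts (column 4) were used for gaster and the unstranded counts (column 2) for brain, since the gaster kit keeps strand. Lines that name no gene were left out of library sizes; in the gaster libraries of pBL, 18.3% of reads were unmapped and 13.9% lay in no feature.

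Counts of the 24 gaster libraries were fitted with edgeR 4.0.16 (R 4.3.3) in 4 groups, with TMM scaling, filterByExpr and the quasi-likelihood test, and p-values were adjusted after Benjamini and Hochberg over all tested genes. The 28 brain libraries were fitted alike. Brain and gaster libraries were prepared with different kits, so that tissue and kit cannot be told apart. The scripts were checked on simulated counts. DESeq2 1.42.0 and sva 3.50.0 gave alternatives. Intervals of count ratios cover counting error only, since reads carry no molecular identifiers. Named in full, among genes past the threshold with a mean over 1 CPM in the 12 libraries and no overlap between the groups, were the higher gene with the largest log2 fold change among those under 1 CPM in mpBB, that among those at 1 CPM or more, and the 2 lower genes with the largest fall; others are said to be chosen after their values were seen. The comparison, kinds of genes and row stretch were chosen with earlier results of these data known.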

Additional observations from a re-analysis of the deposited data

Results flagged for a closer look

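The CPM of SINVBB1_09473 in mpBB gasters stood at 0 in 5 libraries and at 0.0152, a single count, in replicate 13, which set that library apart from the others of its group. The pBB gasters together held 2 counts of this gene and the mBB gasters 1. Of 26 sets of values examined in this way it was the only one with such a sample. Chance alone marks about 1 in 20, so that 1 set of 26 is not more than chance would give.

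The pBL minus mpBB difference itself differed between gaster and brain for 34 genes, by the joint edgeR fit of both tissues. Among the genes named by rule, gaster minus brain was 6.47 for SINVBB1_09473 (adjusted p = 0.0352), 4.36 for SINVBB1_08915 and -1.71 for SINVBB1_06378. SINVBB1_09473 had too few counts to be tested in brain alone, with 66 over the 7 pBL brains and 17 over the 7 mpBB brains, so that its value rests mainly on the gasters. With the individual as a block, over 40 libraries of 20 workers, 28 genes differed, 26 of them among the 34.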

How the results depend on the processing

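Across 23 alternatives no fitted value of a called gene changed direction. The genes were called on these same libraries, so that their direction was largely set by the choice. The filter at 1 CPM tested 45 of the 62 genes. The fit of only the 2 groups and that of workers over 140 tested 61, and the other alternatives all 62. DESeq2 called 92 genes (73 higher, 19 lower) and a fit with 3 surrogate variables 85 (69 higher, 16 lower), with 62 and 60 of the 62 genes among them. Workers numbered under 140 gave 18 calls, 18 higher and 0 lower (377 genes at an unadjusted p under 0.05), and those over 140 gave 38, with 35 higher and 3 lower; these fits hold 3 libraries per group. Without a filter on low counts 75 genes passed, and with over 1 CPM in 6 libraries 44. Size factors of DESeq2 (63), unstranded counts (63), only the 2 groups (60) and a term for individual number (70) gave counts near the main 62. Leaving out 1 library at a time gave 57 to 71 calls, with 49 to 63 higher and 6 to 10 lower, and leaving out pBB replicate 1, chosen after seeing the data for its low total and high share of unmapped reads, gave 67 (66 for pBL against pBB). For pBL against pBB, DESeq2 called 108 genes. No paired analysis was possible for pBL against mpBB because these groups share no replicate numbers. For pBL and pBB, which share 6, the deviations of same-numbered gasters correlated at 0.0928 to 0.494, and a fit of these groups alone called 70 genes without and 63 with the replicate block; each of the 6 pBL gasters correlated best with its own number, as a hint from the data. The causes of these shifts were not tested. Of genes under 1 CPM, 25.5% had a 95% interval within a log2 change of 1; whether depth or spread between workers sets this was not tested.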
